A study of Homo sapiens with 9 samples.

Results

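Axon guidance ligands and receptors were described in 22Rv1, a line of human prostate carcinoma cells. Members were taken by gene symbol: semaphorins with plexins and neuropilins, ephrins with Eph receptors, netrins with DCC and UNC5 receptors, and slits with ROBO receptors. Of 60623 genes listed, 76 symbols matched, 69 of them protein-coding and 7 antisense transcripts. The 65 with a mean of at least 0.5 TPM (transcript abundance per length, scaled within each library) over the 9 libraries were described, 60 coding and 5 antisense. DCC, at 0.520 TPM, lay just inside that minimum and ROBO2, at 0.437 TPM, just outside it. The 60 described members that passed the filter on low counts were tested. EPHA5-AS1, NTN5, EPHB6, SEMA6A-AS2 and EPHA1-AS1, at 1.24, 0.967, 0.814, 0.683 and 0.540 TPM, were not. Of the 11 members below the minimum, ROBO2, PLXNA4 and NTN1 were tested, while SEMA3B-AS1, EPHB1, SEMA3A, UNC5D, SLIT3 and SEMA5A were not, nor were ROBO4 and SEMA5A-AS1, which were listed at 0 in every library.

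These ligands steer growing axons, and they also act in epithelia, vessels and tumours on cell shape, adhesion and migration. Semaphorins signal through plexins, often with a neuropilin as co-receptor, and plexins switch off Ras family GTPases and engage other GTPases that shape the cytoskeleton. Ephrins are held on the cell surface, the A class by a lipid anchor and the B class by a transmembrane domain, and they signal by contact through Eph receptor tyrosine kinases. Netrins attract through DCC and repel through UNC5 receptors, and slits repel through ROBO receptors.

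All 3 groups were depleted of PDCD4, a tumour suppressor that inhibits the translation helicase EIF4A, with a short hairpin RNA, and had 1 form of PDCD4 put back. The forms were S239D, whose aspartate mimics a phosphate, S239A, whose alanine cannot be phosphorylated, and wild type (WT), with 3 libraries each. The titles of the S239D libraries read S23D, and their genotype label, followed here, reads S239D. The labels give the tissue as prostate and the cells as epithelial, and they name no drug treatment. They do not say whether libraries came from separate cultures or whether each line was 1 clone, so the p-values here reflect just the spread among these samples, which may be technical. Parental cells and cells with the depletion alone were not analysed here.

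Library totals were 5696840 to 9688577 counts, so that the floor of 3 counts lay at 0.310 to 0.527 CPM (counts scaled to library size), counting error only. The S239D libraries lay apart from all others on the first principal component (56.8% of the variance), and replicate 2 of S239D and of S239A lay apart on the second (10.9%). The share of mitochondrial counts was 4.72 to 6.01% in S239D, 2.99 to 5.38% in S239A and 2.83 to 3.04% in WT. PDCD4, read from the cells' own gene and from the construct together, had 17.0 ± 0.184 normalised CPM in S239D, 22.4 ± 3.06 in S239A and 23.1 ± 2.40 in WT (SD, n = 3 each). Against WT its log2 fold change in S239D was -0.44 (edgeR adjusted p = 0.0164), and against S239A it was -0.40 (edgeR adjusted p = 0.0245). The part of this difference in the members' values was not tested.

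The labelled epithelium was checked against markers. All 10 prostate luminal markers were listed, with a summed level of 2891 to 2959 TPM in S239D, 3903 to 4441 in S239A and 3848 to 3944 in WT. Of the 9 neuronal markers, STMN2 was at 0 in every S239D library and in S239A replicate 3, and NEFM in S239D replicate 1. TUBB3, MAP2, SNAP25, RBFOX3, NEFL, ELAVL3 and SYT1 were above 0 in every library. RBFOX3 had 0.76, 1.43 and 1.05 TPM in S239D, 58.3, 7.02 and 13.35 in S239A, against 32.5, 5.78 and 28.9 in WT. NEFL had 1.5, 1.69 and 1.78 TPM in S239D, 11.5, 9.79 and 8.32 in S239A, against 8.06, 9.27 and 9.96 in WT. The list summed to 133 to 141 TPM in S239D, 245 to 310 in S239A and 237 to 267 in WT. Of the 8 fibroblast markers, COL1A2, THY1, PDGFRA and PDGFRB were each at 0 in some libraries; the list, mostly LUM and COL1A1, summed to 27.0 to 37.1 TPM in S239D, 48.5 to 61.4 in S239A and 47.0 to 59.1 in WT. Immune markers summed to 2.73 to 3.46 TPM in S239D, 3.30 to 12.6 in S239A and 4.81 to 7.52 in WT, with CD3E and TYROBP at 0 in every library. Endothelial markers summed to at most 1.22 TPM in any library, with CDH5 at 0, and glial markers to at most 3.86 TPM, with S100B at 0. The neuronal, fibroblast and luminal sums were lowest in S239D, as were many members named here, and their part in the members' values was not tested. In bulk RNA, fewer cells expressing a gene and less of its RNA per cell cannot be told apart.

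Levels of different genes are compared per length, in TPM. PLXNB2, a B-class plexin, was the most abundant member in each library, with 166, 168 and 162 TPM in S239D, 138, 141 and 130.2 in S239A, against 124, 129 and 129 in WT. EFNA1 and EFNA3, both lipid-anchored ephrins, followed with EPHA3, EPHB4 and SEMA6A, at means of 77.9, 65.8, 66.0, 59.6 and 54.1 TPM over the 9 libraries. The netrin and slit systems were far lower: their most abundant receptors were UNC5A at 3.83 and ROBO1 at 12.8 TPM, and the most abundant slit was SLIT1 at 9.97 TPM. By family, 18 of 20 coding semaphorins, 10 of 11 plexins and neuropilins, 8 of 8 ephrins, 13 of 14 Eph receptors, 7 of 9 netrin system genes and 4 of 7 slit system genes reached the minimum.

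**Figure D1:**
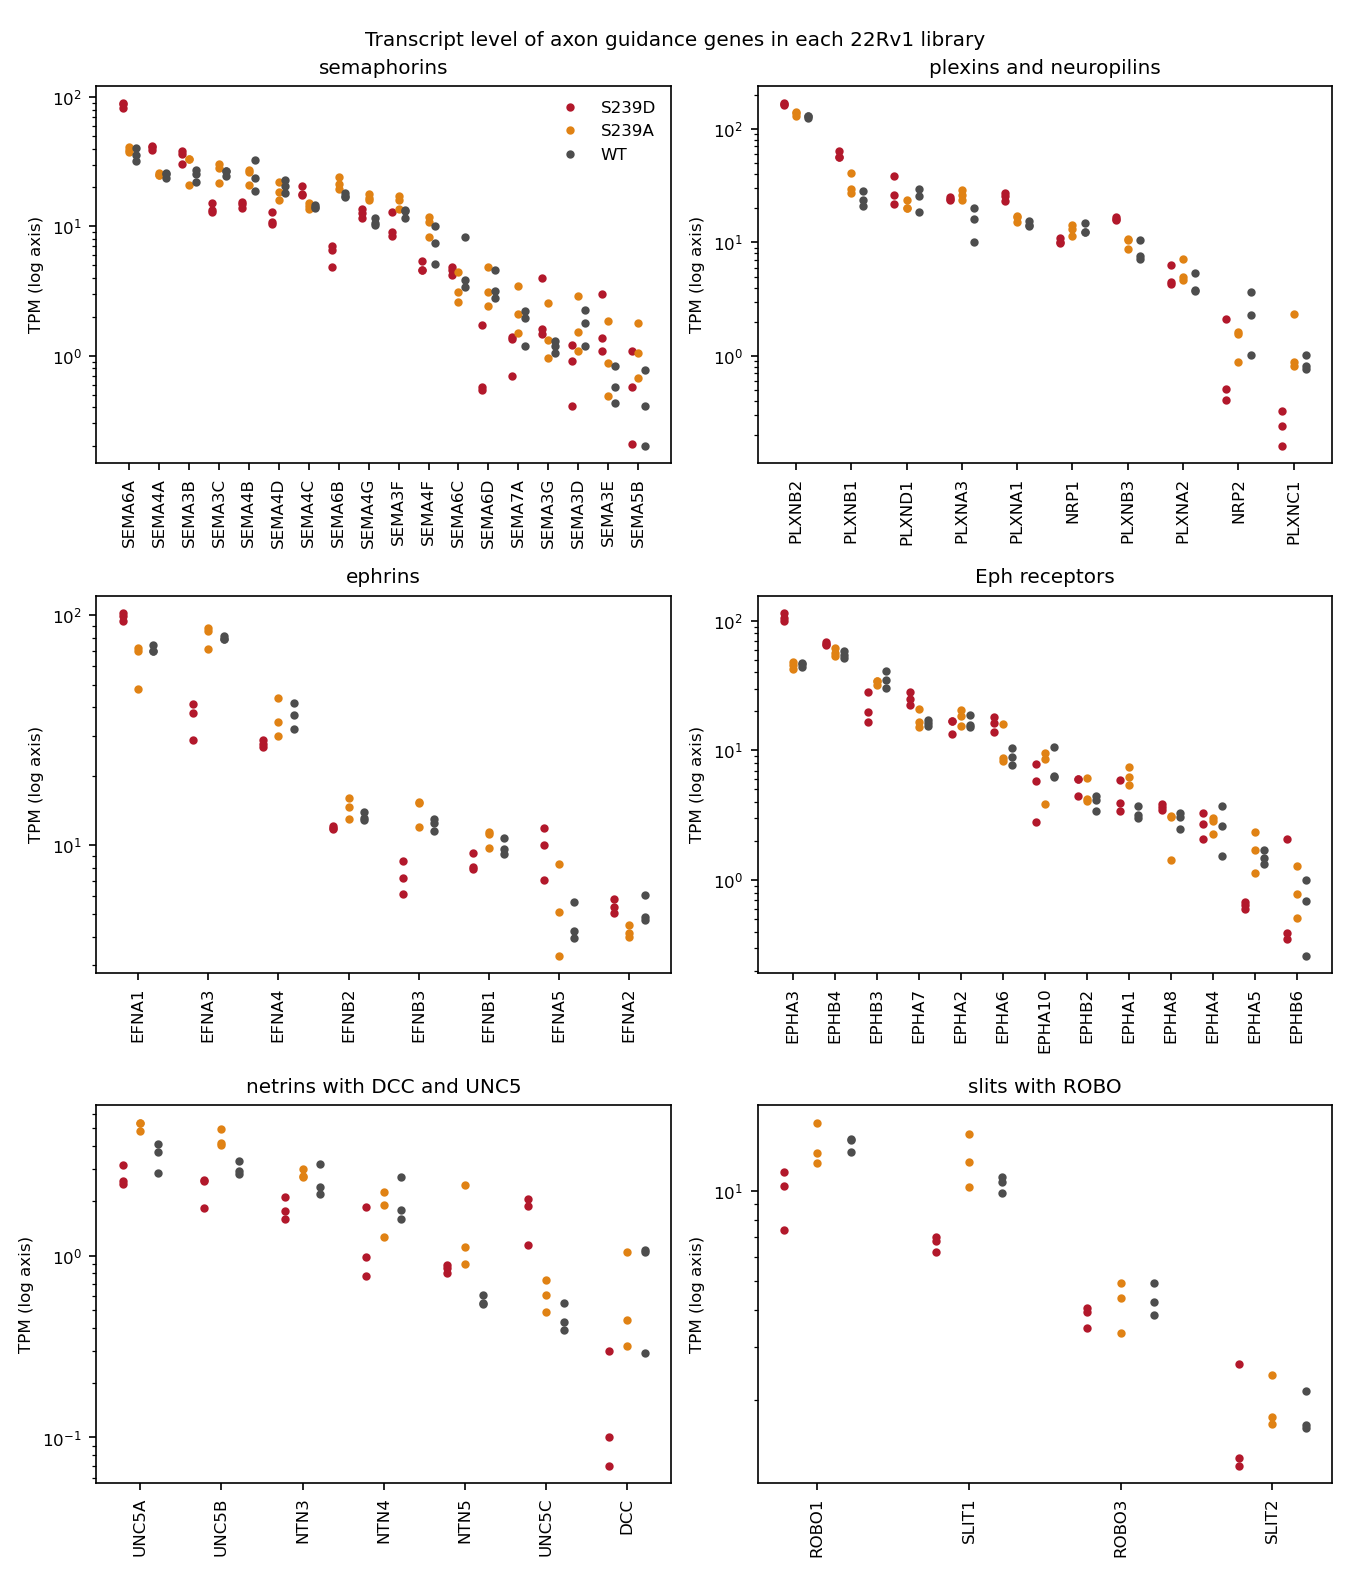
TPM (log axis) of the 60 described coding members in each library, by family and ordered by mean level, with S239D red, S239A orange and WT grey. PLXNB2 lies highest, between 124 and 168 TPM, and DCC has the lowest mean, 0.520 TPM.

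The groups' summed TPM differed in unlike ways across systems, and these sums carry no test. They are not corrected for a gap over all genes. Log2 ratios of mean TPM in S239D over either other group lay a median of 0.09 above the log2 fold changes by counts. The 10 plexins and neuropilins summed to 336 ± 13 TPM in S239D, 264 ± 2.9 in S239A and 235 ± 5.3 in WT (SD, n = 3 each). The 13 Eph receptors summed to 275 ± 15 TPM in S239D, 209 ± 13 in S239A and 201 ± 11 in WT, and the 12 other than EPHA3 to 168 ± 7.6 TPM in S239D, 164 ± 12 in S239A and 155 ± 12 in WT. The 18 semaphorins summed to 267 ± 5.1 TPM in S239D, 258 ± 9.2 in S239A and 235 ± 4.6 in WT. Every S239D and every S239A library was above every WT library, although more members fell than rose in S239D against WT. SEMA6A alone held 86.9 ± 3.5 TPM in S239D, 39.3 ± 1.5 in S239A and 36.0 ± 4.4 in WT, a larger rise than that of the sum. The 8 ephrins summed to 205 ± 7.4 TPM in S239D, 231 ± 31 in S239A and 233 ± 1.8 in WT. The 2 slits summed to 8.38 ± 0.44 TPM in S239D, 14.7 ± 3.0 in S239A and 12.3 ± 0.35 in WT, and ROBO1 with ROBO3 to 13.6 ± 2.0 TPM in S239D, 18.4 ± 1.7 in S239A and 18.7 ± 0.38 in WT. The 3 netrins summed to 3.87 ± 0.49 TPM in S239D, 6.10 ± 1.4 in S239A and 5.16 ± 1.1 in WT, and their 4 receptors to 6.91 ± 1.1 TPM in S239D, 10.8 ± 0.49 in S239A and 7.84 ± 0.79 in WT. Plexin and Eph receptor sums in S239D thus lay above those of both other groups in all libraries, and slit sums below, while Eph sums without EPHA3 overlapped between S239D and both other groups.

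The S239D group, whose form carries the phosphate mimic, was compared with WT. Form, PDCD4 RNA level and line cannot be told apart in this design. Of the 60 described members that passed the filter on low counts, 39 changed, 16 higher and 23 lower in S239D (edgeR, adjusted p under 0.05). Over all 16213 genes tested, 41.4% changed in either direction, 19.7% higher and 21.7% lower. The excess of lower calls did not hold with limma on log2 TPM. With ROBO2 and PLXNA4 counted, edgeR called 16 members higher and 25 lower, while 3 limma fits called 16 higher and 9 lower, 15 and 9, and 12 and 9. The sets of members were not the same. The limma fits with a TPM filter did not test ROBO2, PLXNA4 and PLXNC1, which edgeR called lower, or SEMA3F-AS1, called higher. Over all genes edgeR called 3195 higher and 3513 lower, and limma on log2(TPM + 1) called 2526 higher and 1825 lower. The limma fits took TPM without further scaling between libraries. Over all genes the median log2 fold change was 0.082 in the log2(TPM + 1) fit, beside 0.00075 with edgeR. The part of this shift in the members' split was not tested. Among coding members, 19 of 30 ligands changed, 5 higher and 14 lower, and 18 of 28 receptors changed, 9 in each direction. The median log2 fold change was -0.30 over the 58 coding members, -0.53 over ligands and -0.0032 over receptors, beside 0.00075 over all genes tested. At least 2-fold changes were called for 13 of the 60 described members, beside 11.0% of all genes. Some of these members passed the filter on low counts only through groups where they were high. DCC and NRP2 did so through S239A and WT, and SEMA3F-AS1 and SEMA6A-AS1 through S239D. Their large changes thus follow in part from the filter, which was applied to all genes alike. Libraries of S239D and WT did not overlap for 44 of the 60, 16 higher and 28 lower, beside 53.9% of all genes.

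**Figure D2:**
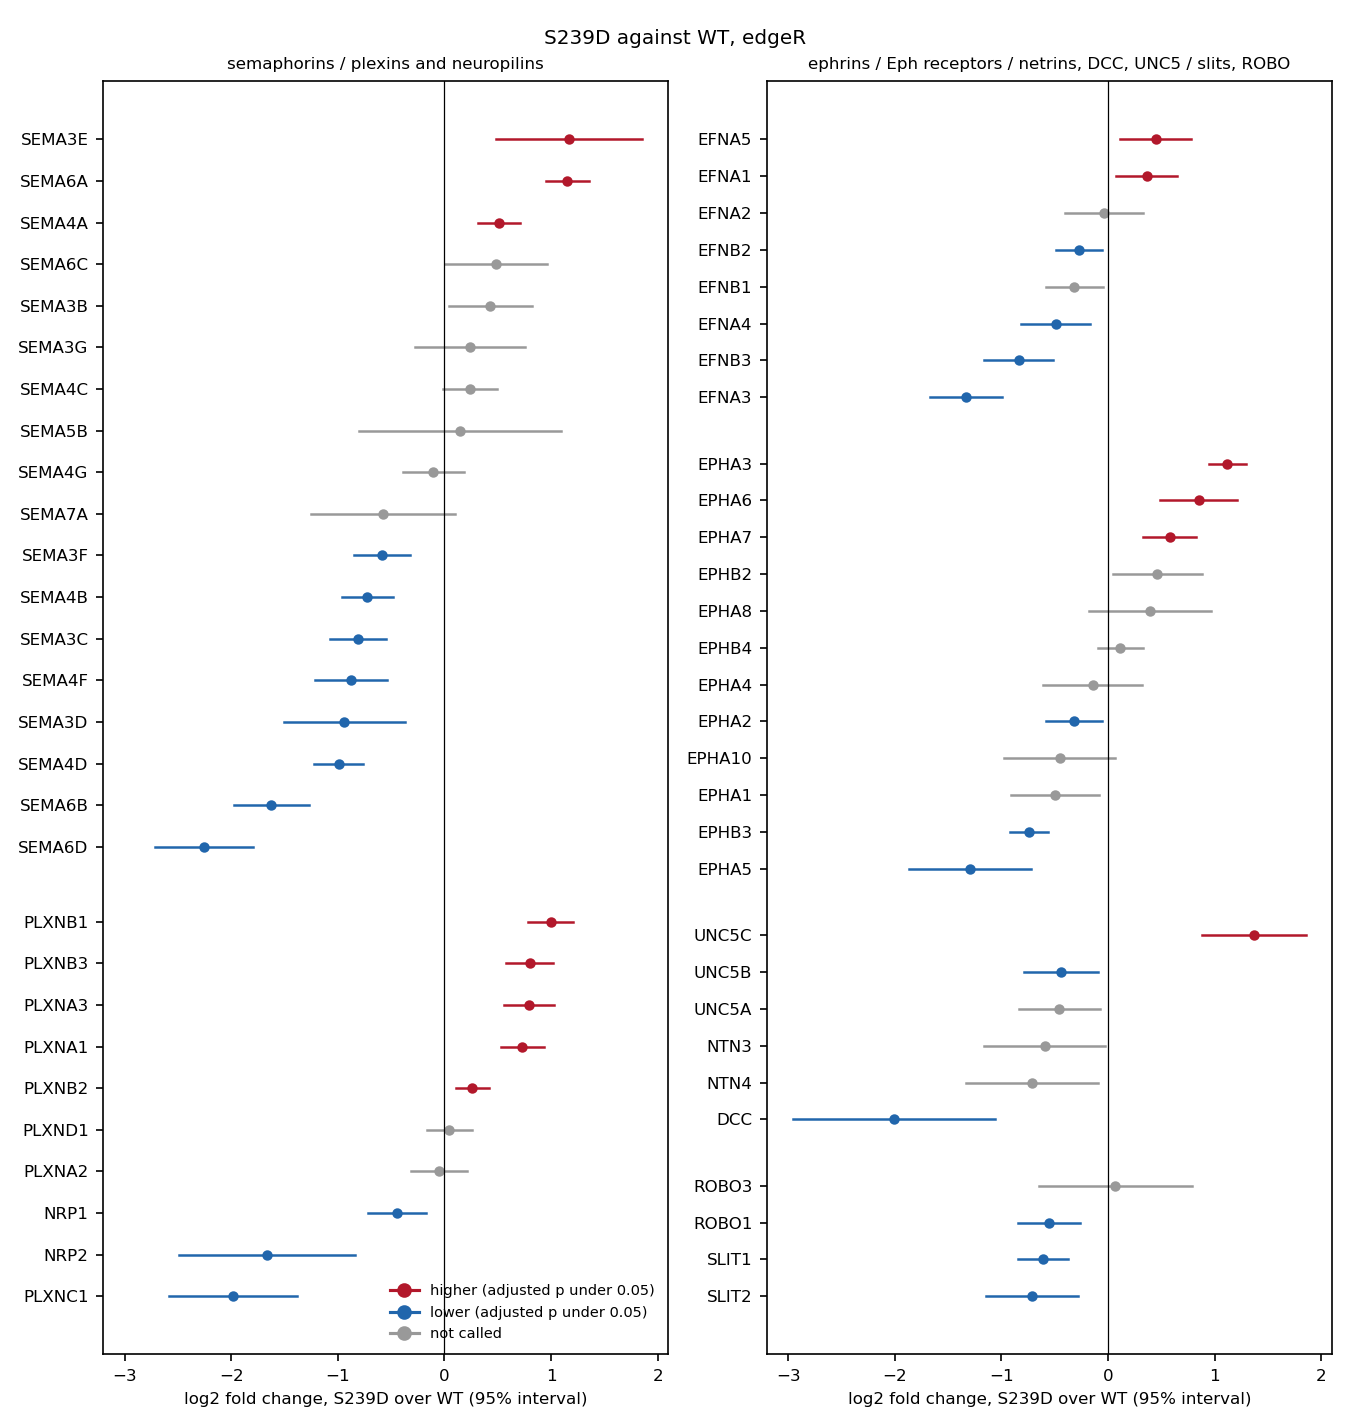
Log2 fold change of S239D over WT with its 95% interval (edgeR) for the 58 coding members tested, by family, with members higher in S239D red, lower blue and not called grey. SEMA6D and DCC lie farthest left, at -2.25 and -2.01, and UNC5C farthest right, at 1.37.

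Among semaphorins, 11 of 18 coding members changed in S239D, 3 higher and 8 lower, and the transmembrane class 6 held 1 of the 2 largest rises and the 2 largest falls. A signed value given alone beside an adjusted p is a log2 fold change. SEMA6A, a ligand of A-class plexins (chromosome 5, 116443616 to 116574934 in the deposited coordinates), had 313, 308 and 289 normalised CPM in S239D, 147, 172 and 136 in S239A, against 134, 133 and 141 in WT. Every S239D library was above every other library, and SEMA6A rose in S239D against WT (log2 fold change 1.16 ± 0.09 SE, edgeR adjusted p = 5.41e-07). SEMA6B, a ligand of PLXNA4, had 18.7, 10.2 and 17.1 normalised CPM in S239D, 65.4, 58.1 and 54.6 in S239A, against 46.7, 48.5 and 47.3 in WT. SEMA6D, a ligand of PLXNA1, had 1.84, 1.97 and 2.10 normalised CPM in S239D, 9.51, 13.4 and 10.9 in S239A, against 9.64, 8.43 and 10.2 in WT. Both were lowest in all 3 S239D libraries with no overlap, and S239D replicate 2 was the lowest library for SEMA6B. SEMA6B fell against WT (log2 fold change -1.62 ± 0.16 SE, edgeR adjusted p = 4.76e-06), and so did SEMA6D (log2 fold change -2.25 ± 0.22 SE, edgeR adjusted p = 2.92e-06). SEMA6C was not called (0.49, edgeR adjusted p = 0.0964), and its log2 ratio of mean TPM was -0.19.

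Class 4 semaphorins, transmembrane ligands of B-class plexins, fell in 3 of 6 members and rose in 1. SEMA4D, the high-affinity ligand of PLXNB1, had 25.5, 23.8 and 23.9 normalised CPM in S239D, 49.5, 41.4 and 49.3 in S239A, against 48.4, 45.1 and 51.8 in WT. Its S239D libraries lay at about the same level and far below all others (log2 fold change -0.99 ± 0.11 SE, edgeR adjusted p = 9.29e-06). SEMA4B fell too, and so did SEMA4F, at -0.72, edgeR adjusted p = 0.000158, and -0.88, edgeR adjusted p = 0.0006. SEMA4F had 8.21, 7.89 and 5.98 normalised CPM in S239D, 17.2, 18.7 and 19.1 in S239A, against 12.7, 14.9 and 13.0 in WT, with S239A libraries above the WT ones. SEMA4A was the exception among called class 4 genes, higher at 0.51, edgeR adjusted p = 0.000583. SEMA4C, a ligand of PLXNB2, and SEMA4G were not called at 0.24 and -0.10, edgeR adjusted p = 0.125 and 0.564.

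The secreted class 3 genes split. SEMA3C, which signals through both neuropilins, and SEMA3F, which prefers NRP2, fell in S239D, at -0.81, edgeR adjusted p = 0.000133, and -0.59, edgeR adjusted p = 0.00154. SEMA3D had 1.84, 2.96 and 2.20 normalised CPM in S239D, 4.57, 5.78 and 4.10 in S239A, against 4.55, 4.04 and 4.76 in WT, and it was lower in each S239D library than in any other (log2 fold change -0.94 ± 0.27 SE, edgeR adjusted p = 0.0113). SEMA3E, which binds PLXND1 without a neuropilin, had 2.69, 4.44 and 4.72 normalised CPM in S239D, 2.84, 2.46 and 2.25 in S239A, against 1.52, 1.40 and 2.27 in WT. It rose against WT (log2 fold change 1.17 ± 0.32 SE, edgeR adjusted p = 0.00924), while S239D replicate 1 lay within the range of S239A. SEMA3B was not called (0.43, edgeR adjusted p = 0.0707), with 57.1, 37.6 and 53.2 normalised CPM in S239D, 43.5, 27.0 and 46.2 in S239A, against 36.0, 37.8 and 36.3 in WT, the replicate 2 libraries of S239D and S239A being lowest in their groups. SEMA5B, SEMA3G and SEMA7A, the lipid-anchored ligand of PLXNC1, were not called either, at 0.15, 0.24 and -0.57.

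Without S239D replicate 2, SEMA3B (adjusted p = 0.0117 to 0.0155, also without S239A replicate 2) and SEMA4C (0.0429) were called higher. On log2 TPM with limma, the calls of SEMA3D (adjusted p = 0.172 to 0.264), SEMA3E (0.124 to 0.173), SEMA3F (0.189 to 0.274) and SEMA4F (0.118 to 0.21) ended, and SEMA4C was called.

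Of the 10 plexins and neuropilins, the semaphorins' receptors, 8 changed in S239D: 5 A-class and B-class plexins were higher, and 3 receptors were lower. PLXNB1, the SEMA4D receptor (chromosome 3, 48403854 to 48430086), had 114, 106 and 119 normalised CPM in S239D, 63.4, 52.1 and 65.3 in S239A, against 55.8, 58.5 and 55.5 in WT. All S239D libraries lay far above the other 6, and PLXNB1 rose (log2 fold change 0.998 ± 0.10 SE, edgeR adjusted p = 3.90e-06). PLXNB2 had 705, 653 and 655 normalised CPM in S239D, 585, 641 and 577 in S239A, against 549, 565 and 562 in WT. Its S239D libraries were the highest 3, by a small margin over S239A replicate 2, and it rose less (log2 fold change 0.26 ± 0.07 SE, edgeR adjusted p = 0.0103). PLXNB3 rose as well, as did the neuropilin partners PLXNA1 and PLXNA3, at 0.80, edgeR adjusted p = 3.76e-05, 0.73, edgeR adjusted p = 3.96e-05, and 0.79, edgeR adjusted p = 7.20e-05. PLXNA2 and PLXND1 were not called, at -0.05 (95% interval -0.32 to 0.21) and 0.05 (-0.16 to 0.26).

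The 3 receptors that fell were both neuropilins and PLXNC1. PLXNC1, the SEMA7A receptor, had 0.857, 1.23 and 1.26 normalised CPM in S239D, 4.81, 4.55 and 5.84 in S239A, against 4.55, 4.74 and 4.19 in WT. NRP2, the co-receptor for SEMA3F and SEMA3C, had 0.735, 0.740 and 0.945 normalised CPM in S239D, 1.73, 3.44 and 2.46 in S239A, against 2.38, 3.16 and 2.38 in WT. Neither showed overlap, and NRP2 rested on 6, 6 and 9 counts in the S239D libraries. PLXNC1 fell against WT (log2 fold change -1.98 ± 0.28 SE, edgeR adjusted p = 8.55e-05), and NRP2 did too (log2 fold change -1.66 ± 0.39 SE, edgeR adjusted p = 0.00341). NRP1 fell less (-0.45, edgeR adjusted p = 0.0113), and its call ended without S239D replicate 3 (adjusted p = 0.0518). With limma on log2 TPM the calls of NRP1 (adjusted p = 0.0985 to 0.137) and NRP2 (0.182 to 0.294) ended, that of PLXNC1 ended in the 1 limma fit that tested it (0.152), and that of PLXNA3 ended in 1 of 3 (0.0733), with no TPM filter. PLXNA4, below the TPM minimum at 0.290 TPM, held 1, 3 and 1 counts in S239D, 14, 16 and 26 in S239A, against 21, 7 and 31 in WT, and was called lower (edgeR adjusted p = 0.000302).

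**Figure D3:**
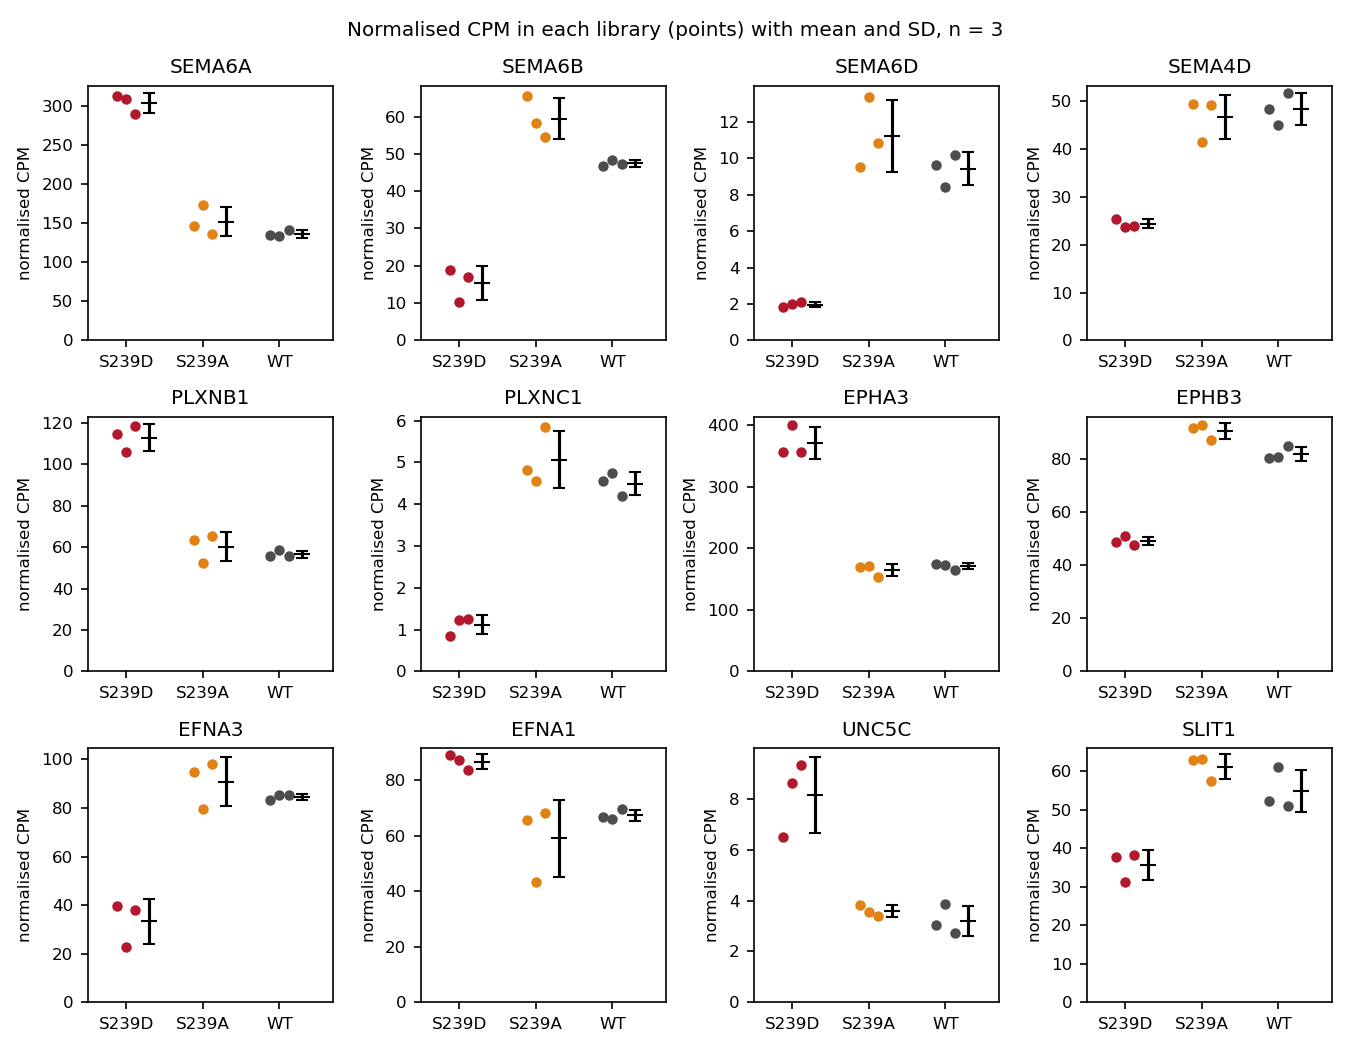
Normalised CPM of 12 members in each library (points), with the mean and SD of 3 libraries (bars), for S239D, S239A and WT from left to right. SEMA6A, PLXNB1, EPHA3, EFNA1 and UNC5C are highest in S239D, and SEMA6B, SEMA6D, SEMA4D, PLXNC1, EPHB3, EFNA3 and SLIT1 are lowest there.

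Of 8 ephrins, 6 changed in S239D, 2 higher and 4 lower, and 3 A-class genes that lie side by side on chromosome 1 did not move together. The deposited coordinates placed EFNA4 at chromosome 1, 155063737 to 155069553, EFNA3 at chromosome 1, 155078837 to 155087538 and EFNA1 at chromosome 1, 155127876 to 155134899, all on the plus strand, with 9.3 kb between EFNA4 and EFNA3 and 40.3 kb between EFNA3 and EFNA1. Their promoters, with that of EPHA3, are shown because these neighbours changed in unlike directions and EPHA3 is the Eph receptor with the highest mean TPM over the 9 libraries. Each line gives the 250 bases before the RefSeq transcript start (GRCh38.p14), 5′ to 3′ on the plus strand, and capitals mark ACGTG or GCGTG on either strand, the core letters of the hypoxia response element, so that the printed strand can read CACGT or CACGC.
EFNA4 (chr1:155063490-155063739): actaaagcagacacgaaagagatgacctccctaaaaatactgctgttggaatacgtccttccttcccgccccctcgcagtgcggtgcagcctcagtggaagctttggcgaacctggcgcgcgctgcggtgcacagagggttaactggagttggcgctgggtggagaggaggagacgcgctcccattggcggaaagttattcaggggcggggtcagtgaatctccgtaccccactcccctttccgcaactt
EFNA3 (chr1:155078587-155078836): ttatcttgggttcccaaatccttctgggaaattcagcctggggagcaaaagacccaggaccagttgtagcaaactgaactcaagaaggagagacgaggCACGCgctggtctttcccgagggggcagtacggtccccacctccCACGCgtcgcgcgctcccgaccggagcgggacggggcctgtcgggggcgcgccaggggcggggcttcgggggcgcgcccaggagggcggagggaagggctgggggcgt
EFNA1 (chr1:155127626-155127875): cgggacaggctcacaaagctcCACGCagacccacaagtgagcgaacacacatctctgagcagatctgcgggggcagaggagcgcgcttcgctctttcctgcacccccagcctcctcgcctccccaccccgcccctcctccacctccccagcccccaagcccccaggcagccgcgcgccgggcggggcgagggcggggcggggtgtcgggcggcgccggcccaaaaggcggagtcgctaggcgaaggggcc
EPHA3 (chr3:89107371-89107620): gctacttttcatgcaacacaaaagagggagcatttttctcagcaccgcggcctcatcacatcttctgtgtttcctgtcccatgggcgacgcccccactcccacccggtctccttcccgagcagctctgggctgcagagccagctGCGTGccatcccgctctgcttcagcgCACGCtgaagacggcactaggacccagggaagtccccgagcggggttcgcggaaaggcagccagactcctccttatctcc
The EFNA3 window held 2 matches, EFNA1 held 1, EPHA3 held 2 and EFNA4 held 0, all of them GCGTG. Of the 60 described coding members, 53 matched a RefSeq promoter, with 84 windows. Either motif was in 51.2% of those windows, 43.5% of windows of members higher in S239D and 48.3% of windows of members lower, beside 43.2% of all 35116 RefSeq windows. GGGCGG, the GC box, was in 71.4% of member windows and 42.6% of all windows. ACGTG overlaps with CACGTG, the E box, which was in 4.76% of member windows and 6.34% of all windows. These matches describe letters only.

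EFNA3, a ligand of EphA receptors, had 39.7, 22.8 and 37.9 normalised CPM in S239D, 94.8, 79.7 and 98.3 in S239A, against 83.2, 85.3 and 85.3 in WT. Its S239D libraries were all far below the others, replicate 2 lowest, and EFNA3 fell against WT (log2 fold change -1.33 ± 0.16 SE, edgeR adjusted p = 1.75e-05). EFNA1, the preferred ligand of EPHA2, had 88.8, 87.2 and 83.7 normalised CPM in S239D, 65.5, 43.1 and 68.2 in S239A, against 66.5, 65.8 and 69.5 in WT. The S239D libraries of EFNA1 were the highest 3, S239A replicate 2 stood low, and EFNA1 rose (log2 fold change 0.36 ± 0.13 SE, edgeR adjusted p = 0.042). EFNA4 fell (log2 fold change -0.49 ± 0.15 SE, edgeR adjusted p = 0.0178). In TPM, EFNA3 lay above EFNA1 in every WT library, with 41.0, 28.6 and 37.6 TPM in S239D, against 79.3, 81.3 and 78.5 in WT for EFNA3, and 99.7, 103 and 94.5 TPM in S239D, against 69.8, 70.0 and 74.3 in WT for EFNA1. In S239D the order was the opposite in every library.

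**Figure D4:**
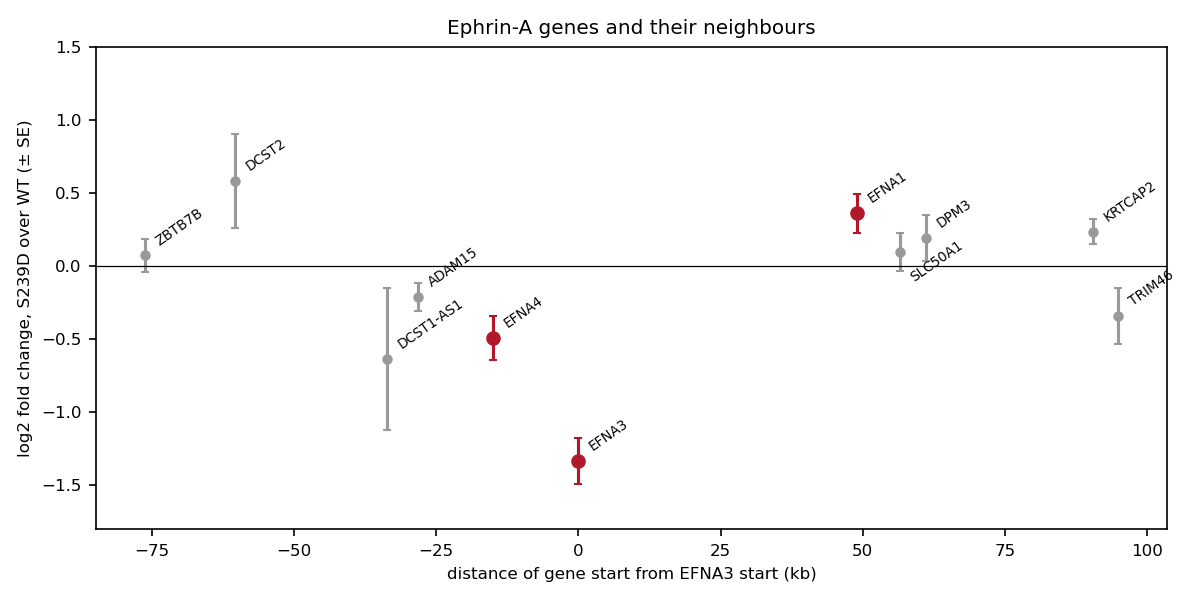
Log2 fold change of S239D over WT (± SE, edgeR) of tested genes around EFNA3, by distance of their starts from the EFNA3 start in kb, with ephrins in red and other genes in grey. EFNA3 is the lowest point at -1.33, between EFNA4 at -0.49 and EFNA1 at 0.36.

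The nearest genes flanking these ephrins had smaller log2 fold changes than EFNA3. ADAM15, SLC50A1 and DPM3 were not called, at -0.21, 0.09 and 0.19, and KRTCAP2 was called higher at 0.24. EFNA5, a high-affinity ligand of EPHA3, rose (log2 fold change 0.45 ± 0.15 SE, edgeR adjusted p = 0.0312). Of the B-class ephrins, EFNB3 and EFNB2 fell. EFNB3 had 15.6, 12.5 and 18.3 normalised CPM in S239D, 33.9, 26.9 and 35.1 in S239A, against 26.0, 28.1 and 29.1 in WT, without overlap (log2 fold change -0.84 ± 0.15 SE, edgeR adjusted p = 0.000536). EFNB2, the ligand of EPHB4, had the smaller fall (-0.27, edgeR adjusted p = 0.0395), while EFNB1 was not called (-0.32, edgeR adjusted p = 0.056) nor was EFNA2 (-0.04, edgeR adjusted p = 0.872).

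Several of these small changes were not called with fewer libraries. Leaving out any 1 S239D or WT library ended the calls of EFNA1 (adjusted p = 0.0623 to 0.114) and EFNB2 (0.0504 to 0.14), and the EFNA5 call ended without any of these but WT replicate 2 (0.0521 to 0.145). EFNA4 was not called without S239D replicate 3 or WT replicate 1 (0.0508 to 0.0998), and EFNB1 was called without S239D replicate 1 or S239A replicate 2 (0.029 to 0.0461). With limma on log2 TPM, the calls of EFNA4 (adjusted p = 0.0764 to 0.121) and EFNB2 (0.373 to 0.434) ended, and those of EFNA1 (0.0678) and EFNA5 (0.0933) ended in the fit with no TPM filter. DESeq2 and the fit with no filter on counts also ended the calls of EFNB2 (0.0759 to 0.0848) and EFNA5 (0.0719 to 0.0884, adjusted p).

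Among 12 Eph receptors tested, 3 rose and 3 fell in S239D. EPHA3, an EphA receptor (chromosome 3, 89107621 to 89482134), had 356, 401 and 357 normalised CPM in S239D, 170.1, 172 and 154 in S239A, against 174, 173 and 165 in WT. Its lowest S239D library was far above the highest of the others, and EPHA3 rose (log2 fold change 1.12 ± 0.08 SE, edgeR adjusted p = 2.34e-07). EPHA6 and EPHA7, also EphA receptors, rose at 0.85, edgeR adjusted p = 0.00118, and 0.58, edgeR adjusted p = 0.00123. EPHB4, the EFNB2 receptor, had 177, 136 and 164 normalised CPM in S239D, 146, 149 and 135 in S239A, against 139.8, 149 and 152 in WT, overlapping between groups, and was not called (0.12, edgeR adjusted p = 0.367).

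EPHA5 had 3.43, 2.84 and 2.41 normalised CPM in S239D, 5.31, 10.6 and 8.61 in S239A, against 6.94, 7.73 and 6.69 in WT. Its S239D libraries were below all others, and EPHA5 fell (log2 fold change -1.29 ± 0.27 SE, edgeR adjusted p = 0.00153). EPHB3, a receptor of B-class ephrins, had 48.6, 50.8 and 47.7 normalised CPM in S239D, 91.7, 92.6 and 87.0 in S239A, against 80.2, 80.6 and 85.0 in WT. No library overlapped between S239D and WT for EPHB3 (log2 fold change -0.74 ± 0.08 SE, edgeR adjusted p = 1.22e-05). EPHA2, the EFNA1 receptor, fell at the edge of the threshold (-0.32, edgeR adjusted p = 0.0499). EPHA1 (-0.50, edgeR adjusted p = 0.0524), EPHB2 (0.46, edgeR adjusted p = 0.0691), EPHA4, EPHA8 and EPHA10 were not called. The last 3 had log2 fold changes of -0.14, 0.40 and -0.45, with wide intervals (-0.61 to 0.32, -0.18 to 0.97 and -0.97 to 0.06).

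The EPHA2 call ended without any of S239D replicate 2 or 3, S239A replicate 1 or 3, and WT replicate 2 or 3 (adjusted p = 0.0555 to 0.155), under RLE scaling, DESeq2, the 2 groups alone and without both replicate 2 libraries (0.0519 to 0.0941), and in limma fits of log2 TPM (0.713 to 0.767). Other genes were called without single libraries: EPHA1 without S239D replicate 1 or S239A replicate 2 (adjusted p = 0.0269 to 0.0454), EPHB2 without S239D replicate 1, S239A replicate 2 or WT replicate 2 (0.0413 to 0.0459), and EPHB4 without S239D replicate 2 (0.0397), and also in limma fits (0.0475 to 0.049). With limma on log2 TPM the EPHA5 call ended (adjusted p = 0.0686 to 0.09), and that of EPHA6 in the fit with no TPM filter (0.0733). For EPHA1 the log2 ratio of mean TPM was 0.40, opposite in direction to its counts.

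In the netrin system, 3 of 4 receptors and neither of the 2 netrins that were described and tested changed in S239D. UNC5C, a receptor for repulsion by netrins, had 6.49, 8.63 and 9.34 normalised CPM in S239D, 3.83, 3.56 and 3.38 in S239A, against 3.03, 3.86 and 2.72 in WT. It was higher in each S239D library than in any other (log2 fold change 1.37 ± 0.23 SE, edgeR adjusted p = 0.000302). DCC, the receptor for attraction, had 0.735, 0.247 and 0.420 normalised CPM in S239D, 1.73, 1.60 and 2.05 in S239A, against 2.06, 1.58 and 2.04 in WT. The S239D libraries held 6, 2 and 4 counts, so 1 of them lay under the floor, and DCC fell (log2 fold change -2.01 ± 0.44 SE, edgeR adjusted p = 0.00246). UNC5B had 8.82, 11.7 and 12.6 normalised CPM in S239D, 19.9976, 25.1 and 21.1 in S239A, against 14.5, 16.7 and 14.2 in WT, lower in all S239D libraries (log2 fold change -0.44 ± 0.16 SE, edgeR adjusted p = 0.0404). UNC5A, the most abundant receptor of the system, had 6.61, 7.65 and 6.51 normalised CPM in S239D, 14.1, 13.0 and 14.5 in S239A, against 10.9, 10.0 and 7.59 in WT and was not called (-0.46, edgeR adjusted p = 0.051). NTN3 and NTN4, secreted netrins, stood at -0.60, edgeR adjusted p = 0.0845, and -0.71, edgeR adjusted p = 0.0604.

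The UNC5B call ended without S239D replicate 1 or any 1 WT library (adjusted p = 0.0631 to 0.154), and UNC5A was called without S239D replicate 2, S239A replicate 2 or WT replicate 3 (0.0204 to 0.0459), as was NTN4 without S239D replicate 1 (0.0275). With limma on log2 TPM the calls of DCC (adjusted p = 0.136 to 0.164) and UNC5B (0.287 to 0.436) ended, and DESeq2 ended that of UNC5B (0.0816).

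Both slits and ROBO1 fell in S239D, and no slit system gene rose. SLIT1, a secreted ROBO ligand, had 37.7, 31.2 and 38.1 normalised CPM in S239D, 62.8, 63.1 and 57.4 in S239A, against 52.3, 60.9 and 50.9 in WT. ROBO1, its receptor, had 34.1, 40.2 and 38.6 normalised CPM in S239D, 52.1, 73.3 and 51.7 in S239A, against 52.7, 52.3 and 60.6 in WT. For both genes the S239D libraries were below all 6 others. SLIT1 fell against WT (log2 fold change -0.61 ± 0.11 SE, edgeR adjusted p = 0.000613), as did SLIT2 (-0.71, edgeR adjusted p = 0.0118) and ROBO1 (log2 fold change -0.55 ± 0.14 SE, edgeR adjusted p = 0.005). ROBO3, a divergent ROBO, was not called (0.07, edgeR adjusted p = 0.888). ROBO2, below the TPM minimum, held 5, 1 and 3 counts in S239D, against 11, 8 and 7 in WT, and was called lower (edgeR adjusted p = 0.0376). With limma on log2 TPM the calls of SLIT2 (adjusted p = 0.808 to 0.9) and ROBO1 (0.0508 to 0.0874) ended.

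Both antisense transcripts that could be tested were higher in S239D than in WT, but both passed the filter on low counts through their S239D libraries. A high level in S239D thus helped to decide which could be tested, so their shared direction is no separate result. SEMA3F-AS1 also reached the TPM minimum through S239D, at 1.19 TPM there, 0.157 in S239A and 0.350 in WT. SEMA6A-AS1 had 2.08, 2.22 and 1.78 normalised CPM in S239D, 0.370, 1.11 and 1.33 in S239A, against 0.433, 0.878 and 0.793 in WT, and SEMA6A on the other strand rose too. SEMA3F-AS1 had 1.71, 1.60 and 2.10 normalised CPM in S239D, 0.123, 0.369 and 0.410 in S239A, against 0.325, 0.878 and 0.793 in WT, while SEMA3F fell. The S239D libraries were above all others for each. Their log2 fold changes were 1.55, edgeR adjusted p = 0.0167, and 1.48, edgeR adjusted p = 0.0206. Strandedness is not given in the sources used here, so reads of a gene and its antisense partner cannot be told apart. The SEMA6A-AS1 call ended without WT replicate 1 (adjusted p = 0.0885) and the SEMA3F-AS1 call without S239D replicate 3 or WT replicate 1 (0.0778 to 0.113), and both ended with DESeq2 (0.0523 and 0.0971). The SEMA6A-AS1 call also ended in 2 limma fits on log2 TPM (0.0536 to 0.0976).

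Of the 39 calls between S239D and WT, 18 held in every alternative in which the gene was tested. They were EFNA3, EFNB3, EPHA3, EPHA7, EPHB3, PLXNA1, PLXNB1, PLXNB2, PLXNB3, SEMA3C, SEMA4A, SEMA4B, SEMA4D, SEMA6A, SEMA6B, SEMA6D, SLIT1 and UNC5C.

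The S239D and S239A groups were compared next. Their forms of PDCD4 differ in the residue at the serine, and their PDCD4 RNA differed too (log2 fold change -0.40, edgeR adjusted p = 0.0245). Of the 60 described members tested, 42 changed, 12 higher and 30 lower in S239D (edgeR, adjusted p under 0.05). Over all genes 43.6% changed, 20.9% higher and 22.7% lower. In limma fits of log2 TPM the split of members came nearer to even, at 12 higher and 15 lower, 11 and 15, and 12 and 15, where edgeR called 12 and 32 with ROBO2 and PLXNA4 counted. Again the limma fits with a TPM filter did not test ROBO2, PLXNA4 and PLXNC1, called lower by edgeR, or SEMA3F-AS1, called higher. Over all genes limma on log2(TPM + 1) called 2784 higher and 1913 lower, and edgeR 3390 and 3674. The median over all genes was shifted here too, at 0.092 in that limma fit, beside 0.0099 with edgeR. Among coding members, 22 of 30 ligands changed, 3 higher and 19 lower, and 19 of 28 receptors, 8 higher and 11 lower. The median log2 fold change was -0.43 over the 58 coding members, beside 0.01 over all genes. At least 2-fold changes were called for 17 of the 60, beside 12.1% of all genes. The limit from the filter on low counts holds here too for DCC, NRP2 and SEMA3F-AS1. Libraries of S239D and S239A did not overlap for 14 members higher and 31 lower, beside 49.8% of all genes. This comparison and that with WT share the S239D libraries, so their values are given side by side only.

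By family, 12 of 18 semaphorins changed between S239D and S239A, 2 higher and 10 lower. The largest were SEMA6D (-2.50, edgeR adjusted p = 7.12e-07, beside -2.25 against WT) and SEMA6B (-1.94, edgeR adjusted p = 6.28e-07, beside -1.62). SEMA6A was higher (log2 fold change 1.0 ± 0.09 SE, edgeR adjusted p = 1.40e-06). SEMA4G, a transmembrane class 4 gene, had 23.8, 19.4 and 24.6 normalised CPM in S239D, 38.8, 39.5 and 34.4 in S239A, against 24.7, 20.7 and 26.9 in WT. It was lower in S239D than in S239A (log2 fold change -0.73 ± 0.13 SE, edgeR adjusted p = 0.000401), while its S239D and WT libraries overlapped. SEMA5B had 1.35, 0.617 and 1.36 normalised CPM in S239D, 3.21, 2.34 and 3.28 in S239A, against 1.30, 1.05 and 0.680 in WT, with S239A above both other groups in every library (log2 fold change -1.39 ± 0.38 SE, edgeR adjusted p = 0.00878). SEMA4F was lower as well (log2 fold change -1.32 ± 0.15 SE, edgeR adjusted p = 1.31e-05), and so was SEMA3D (-1.04, edgeR adjusted p = 0.0054).

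Of the plexins and neuropilins, 7 of 10 changed, 4 higher and 3 lower. PLXNB1 was higher (0.90, edgeR adjusted p = 6.86e-06) and PLXNC1 lower (-2.17, edgeR adjusted p = 2.81e-05), while PLXNB2 was not called (0.16, edgeR adjusted p = 0.095) except without S239A replicate 2 (adjusted p = 0.0165), without both replicate 2 libraries (0.000427) and in limma fits of log2 TPM (0.0137 to 0.0173). Ephrins changed in 6 of 8, 1 higher and 5 lower. EFNA3 was lower (-1.44, edgeR adjusted p = 7.18e-06), EFNB3 was lower (-1.05, edgeR adjusted p = 6.88e-05) and EFNA1 was higher (0.55, edgeR adjusted p = 0.00427). EFNA5 was not called (0.08, edgeR adjusted p = 0.68), and its S239A and S239D libraries overlapped.

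Eph receptors changed in 7 of 12, 3 higher and 4 lower. EPHA3 was higher (1.17, edgeR adjusted p = 1.12e-07) and EPHA5 lower (-1.5, edgeR adjusted p = 0.000378). EPHA1, a receptor of A-class ephrins, had 6.12, 4.07 and 5.04 normalised CPM in S239D, 13.3, 10.9 and 11.8 in S239A, against 6.94, 7.20 and 7.37 in WT. Its S239A libraries were above all others, and EPHA1 was lower in S239D (log2 fold change -1.24 ± 0.18 SE, edgeR adjusted p = 9.73e-05). All 6 netrin system genes that were described and tested changed, UNC5C higher and the other 5 lower. UNC5A (log2 fold change -1.01 ± 0.17 SE, edgeR adjusted p = 0.000298) and UNC5B (log2 fold change -0.99 ± 0.15 SE, edgeR adjusted p = 0.000161) were lower, with no overlap between S239D and S239A. DCC (-1.92, edgeR adjusted p = 0.00308) and UNC5C (1.19, edgeR adjusted p = 0.000645) differed in opposite directions. NTN3 and NTN4 were lower at -0.71, edgeR adjusted p = 0.0377, and -0.78, edgeR adjusted p = 0.0387. SLIT1 (-0.77, edgeR adjusted p = 7.42e-05), SLIT2 (-0.94, edgeR adjusted p = 0.00171) and ROBO1 (-0.65, edgeR adjusted p = 0.00159) were lower in S239D. SEMA3F-AS1 was higher, on 14, 13 and 20 counts in S239D, against 1, 3 and 4 in S239A (edgeR adjusted p = 0.00149).

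Of these 42 calls, 24 held in every alternative in which the gene was tested. Those of EFNA4 (without S239D replicate 2 or 3, or S239A replicate 3, adjusted p = 0.0528 to 0.141), EPHA6 (without S239D replicate 2, or S239A replicate 1 or 3, 0.0523 to 0.0711), NRP1 (without S239D replicate 1 or 3, S239A replicate 1 or 2, or WT replicate 3, 0.0521 to 0.126), NTN3 (without S239D replicate 1 or 2, any S239A library, or WT replicate 1, 0.0507 to 0.104) and NTN4 (without S239D replicate 2 or 3, S239A replicate 1 or 2, or any WT library, 0.052 to 0.136) ended without single libraries. NRP1 (0.058 to 0.0676), NTN3 (0.0505 to 0.127) and NTN4 (0.0574 to 0.167) also ended with DESeq2 and with the 2 groups alone, among others. The replicate number was also used as a block across all 9 libraries, those of WT included. With it, SEMA3B (0.35, adjusted p = 0.0399), SEMA4C (0.26, adjusted p = 0.043) and SEMA6C (0.42, adjusted p = 0.0374) were called higher in S239D and no call was lost. SEMA3B (0.0249), SEMA4C (0.0287) and EPHB4 (0.0174) were also called without S239D replicate 2, as were SEMA7A without S239D replicate 3 (0.0409), SEMA3E without S239D replicate 1 (0.0376), EPHA10 without S239A replicate 2 (0.0256) and SEMA6A-AS1 without S239A replicate 3 (0.0466, all edgeR adjusted p). In limma fits SEMA4C (0.0403 to 0.0449) and SEMA6A-AS1 (0.0355 to 0.0392) were called (adjusted p). In at least 1 limma fit on log2 TPM, 18 calls ended: PLXNA3, whose direction turned (adjusted p = 0.771 to 0.827), and DCC, EFNA4, EFNB1, EFNB2, EPHA1, EPHA2, EPHA5, EPHA6, NRP1, NRP2, NTN3, NTN4, ROBO1, SEMA3D, SEMA5B, SLIT2 and UNC5C (0.0517 for EPHA5 up to 0.743 for SLIT2).

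The S239A group, whose form lacks the phosphate site, was compared with WT, and here too form and line cannot be told apart. None of the 63 members tested changed (edgeR), and 10 had an unadjusted p under 0.05, all of them higher in S239A. Of all genes, 0.00617% (1 gene) was called, and 9.76% had an unadjusted p under 0.05. DESeq2 called 1 member, SEMA4G (0.63, adjusted p = 0.0141). S239A and WT libraries did not overlap for 14 described members, 13 higher and 1 lower in S239A, beside 19.5% of all genes.

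SEMA4G had 38.8, 39.5 and 34.4 normalised CPM in S239A, against 24.7, 20.7 and 26.9 in WT. It had the smallest adjusted p among members in this comparison, at a log2 fold change of 0.63 (edgeR adjusted p = 0.201). SEMA5B had 3.21, 2.34 and 3.28 normalised CPM in S239A, against 1.30, 1.05 and 0.680 in WT (log2 fold change 1.53 ± 0.39 SE, edgeR adjusted p = 0.248). EPHA1 had 13.3, 10.9 and 11.8 normalised CPM in S239A, against 6.94, 7.20 and 7.37 in WT (log2 fold change 0.74 ± 0.18 SE, edgeR adjusted p = 0.235). In all 3 genes each S239A library exceeded each WT library, and none passed the threshold. UNC5A and UNC5B showed the same order, at 0.55, edgeR adjusted p = 0.294, and 0.55, edgeR adjusted p = 0.285. EFNA2 was the 1 member lower without overlap (-0.32, edgeR adjusted p = 0.576), and EFNA5 stood at 0.36, edgeR adjusted p = 0.476. Of members with large changes in S239D, S239A against WT gave log2 fold changes nearer 0: SEMA6A at 0.15 (95% interval -0.04 to 0.35), EPHA3 at -0.05 (-0.22 to 0.13), PLXNB1 at 0.09 (-0.12 to 0.31), EFNA3 at 0.10 (-0.22 to 0.42) and PLXNC1 at 0.18 (-0.31 to 0.68).

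Without replicate 2 of both S239A and S239D, 6 members were called higher in S239A than in WT: SEMA4G, EPHA1, SEMA5B, SEMA6B, UNC5A and SEMA3B (adjusted p = 0.00928 for EPHA1 and 0.0459 for SEMA3B). In that setting 874 genes were called in all, against 1 with every library.

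**Figure D5:**
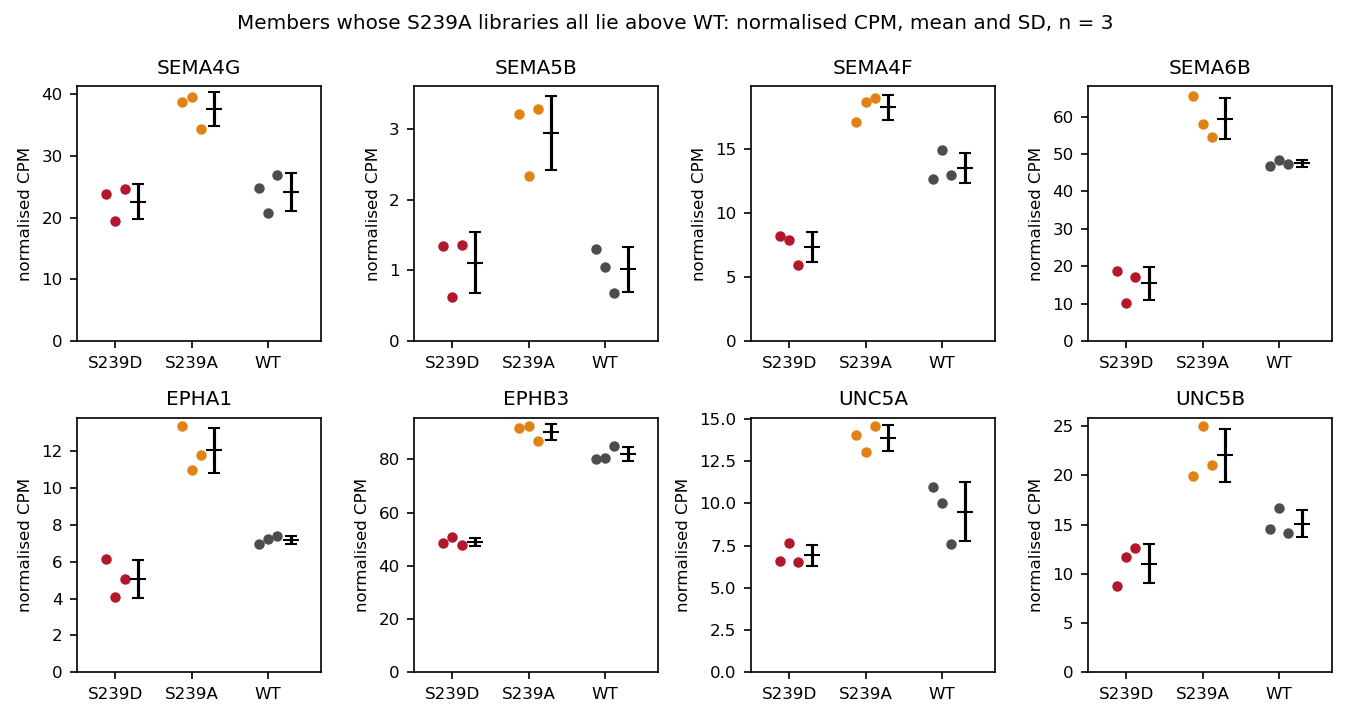
Normalised CPM of 8 members in each library (points), with the mean and SD of 3 libraries (bars), for S239D, S239A and WT from left to right. They were picked from the 13 described members whose S239A libraries all lie above their WT libraries, and none passed the adjusted threshold in that comparison. SEMA3F, EPHA2, PLXNB2, PLXNB3 and EFNA5 showed the same order and are not drawn.

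Other genes of the pathway were taken from 2 lists. Of 20 co-receptors and other cues tested (28 listed), 12 changed in S239D against WT, 3 higher and 9 lower, and 12 against S239A, 3 higher and 9 lower, where 41.4% and 43.6% of all genes changed. Of 66 cytoplasmic transducers tested (67 listed), 34 changed against WT, 16 higher and 18 lower, and 35 against S239A, 14 higher and 21 lower, beside the same shares of all genes. Neither list had a called gene in S239A against WT. The medians of log2 fold change against WT were -0.07 for the first list and -0.04 for the second.

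PTK7, a kinase-dead receptor of planar polarity, averaged 30.5 ± 2.63 in S239D, against 80.4 ± 5.05 in WT (normalised CPM, SD, n = 3; log2 fold change -1.40 ± 0.12 SE, edgeR adjusted p = 7.58e-07). FLRT2, an adhesion protein that binds UNC5 receptors, averaged 46.4 ± 4.47 in S239D, against 21.4 ± 0.248 in WT (log2 fold change 1.12 ± 0.11 SE, edgeR adjusted p = 4.59e-06). FLRT1, of the same family, was also higher (log2 fold change 1.10 ± 0.36 SE, edgeR adjusted p = 0.0248). DSCAM, a netrin receptor, was higher (log2 fold change 1.97 ± 0.41 SE, edgeR adjusted p = 0.00165), and NTNG1, a lipid-anchored netrin relative, and CDON, a hedgehog co-receptor, were lower (log2 fold change -1.91 ± 0.45 SE, edgeR adjusted p = 0.00362, and log2 fold change -0.98 ± 0.21 SE, edgeR adjusted p = 0.0018).

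The 6 transducers with the largest changes against WT were all lower. VAV3, an exchange factor for RAC and related GTPases, averaged 10.7 ± 0.648 in S239D, against 31.2 ± 3.74 in WT (log2 fold change -1.54 ± 0.12 SE, edgeR adjusted p = 6.15e-07). FYN, a Src family kinase, averaged 6.66 ± 1.03 in S239D, against 16.7 ± 0.995 in WT (log2 fold change -1.32 ± 0.15 SE, edgeR adjusted p = 1.38e-05). RRAS, a GTPase switched off by plexins, averaged 5.76 ± 1.37 in S239D, against 19.9 ± 1.5 in WT (log2 fold change -1.78 ± 0.24 SE, edgeR adjusted p = 4.81e-05). PAK3, a kinase downstream of RAC, CHN2, a RAC-inactivating chimaerin, and TRIM9, a ligase that binds DCC, had log2 fold changes of -2.05, -1.62 and -1.55 (edgeR adjusted p = 0.00138, 0.00448 and 4.87e-05). Against S239A, NRCAM, an adhesion co-receptor, was lower (log2 fold change -1.03 ± 0.17 SE, edgeR adjusted p = 0.000212).

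By position, 12 of the 60 described members tested lay on chromosome 3, 5 of them higher and 3 lower in S239D against WT, and ROBO2, below the TPM minimum and called lower, lay there too. The median log2 fold change over all 885 genes tested on chromosome 3 was 0.22, and 49.72% of them were called. On X, PLXNB3 and PLXNA3, 678.9 kb apart, were both higher. SEMA3F, called lower, lay 78.5 kb from SEMA3B, which was not called.

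Counts and TPM, both from the authors, gave log2 differences that, after the median gap over all genes (0.09) was subtracted, lay more than 0.5 apart for 5 of the 60 members (8.33%) in S239D against WT, SEMA3G, SEMA6C, SLIT2, EPHA1 and EFNA5, beside 4.95% of all genes. They did so for 6 (10%) in S239D against S239A and 3 (5%) in S239A against WT, beside 4.92% and 3.58% of all genes. In S239D against WT, EPHA1 turned from -0.50 by counts to 0.40 by mean TPM, and SEMA6C from 0.49 to -0.19. PLXNA3 had 109, 103 and 97.8 normalised CPM in S239D, 64.2, 52.0 and 68.4 in S239A, against 62.5, 53.2 and 62.7 in WT. In TPM it had 25.2, 23.8 and 24.1 TPM in S239D, 28.9, 25.9 and 23.6 in S239A, against 16.2, 10.0 and 20.1 in WT. By counts S239A lay with WT, and by TPM S239A lay with S239D, so the difference of S239D from S239A is 0.74 by counts and -0.09 with limma on log2(TPM + 1). NRP2 in S239D had 2.13 TPM in replicate 1, against 0.510 and 0.410 in replicates 2 and 3, although its counts were close.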

How the data were processed

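RNA of 22Rv1 cells with S239D, S239A or WT PDCD4 was sequenced after poly-T selection and random priming, 3 libraries per group by genotype label. The authors deposited expected counts per gene and TPM, scaled within each library. Per the submitters' processing notes, reads passed through Trimmomatic 0.39 and RSEM. The aligner, genome build, annotation and strandedness are not given in the sources used here, so coordinates are those of the deposited table.

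Expected counts (3.81% of values not whole) were rounded. Rows lacking a symbol, 1.33% of counts, stayed in the tests. In R 4.3.3, edgeR 4.0.16 fitted all 9 libraries in 1 model with TMM scaling, after filterByExpr left 16213 genes. Two-sided quasi-likelihood F tests compared the groups, with p-values adjusted by the Benjamini-Hochberg method over all genes and called at 0.05. Code was tested on simulated data. The common biological coefficient of variation was 0.106.

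The members, gene lists and alternatives were chosen with earlier results of these data known. Values in all libraries were to be printed for members called with an absolute log2 fold change of at least 1 and for the most abundant of each family, and for each list at most the 6 largest calls were named. Promoters of EFNA4, EFNA3, EFNA1 and EPHA3 came from RefSeq (GRCh38.p14). Some genes near the ephrins are not reported here. Same-numbered S239D and S239A libraries deviated together (r = 0.100, 0.251 and 0.103 across genes), and those of S239D and WT did not (-0.003, 0.010 and -0.009), nor those of S239A and WT (0.025, 0.015 and 0.091). Deviations were taken from the mean of each group of 3, so the values within a set are not separate. S239D replicate 1 correlated more with S239A replicate 3 (0.150) than with its own number, so pairing by number was not settled. Alternatives were RLE scaling, DESeq2 1.42.0, limma 3.58.1 on log2 TPM with pseudocounts of 1 and 0.1, no filter, 1 CPM in 6 libraries, the compared groups alone, a replicate block, and left-out libraries.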

Additional observations from a re-analysis of the deposited data

How the results depend on the processing

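Counts of calls between S239D and either other group moved by over 1.5 times only with limma on TPM. With log2(TPM + 1), log2(TPM + 0.1) and log2(TPM + 1) without a TPM filter, S239D against WT gave 4351, 4284 and 3717 genes (6708 with edgeR), 25, 24 and 21 members (41) and 25, 26 and 23 list genes (46). S239D against S239A gave 4697, 4642 and 4094 genes (7064), 27, 26 and 27 members (44) and 31, 31 and 26 list genes (47). The limma fits with a TPM filter did not test ROBO2, PLXNA4, PLXNC1 or SEMA3F-AS1. The cause of the smaller counts was not tested. In the same fits PLXNA3 turned round between S239D and S239A, at -0.093, -0.096 and -0.093.

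S239A against WT had 1 gene, 0 members and 0 list genes. It gave 142 genes, 1 member and 1 list gene without a filter, 874, 6 and 3 without replicate 2 of S239A and S239D, 66 genes and 1 member with DESeq2, and 2, 3 and 2 genes in the 3 limma fits. With the replicate block the counts of genes were 7275 for S239D against WT, 7610 for S239D against S239A and 6 for S239A against WT, and of members 44, 47 and 0. The block and the fit without a filter each added SEMA3B, SEMA6C and EPHA10 to S239D against WT.

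Leaving out 1 library gave 33 to 46 members and 5322 to 7533 genes for S239D against WT, 39 to 43 and 5853 to 7182 for S239D against S239A, and 0 to 0 and 1 to 8 for S239A against WT. Depth limits the genes near the floor of 3 counts, DCC, PLXNA4, ROBO2 and SEMA3F-AS1 among them.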
